A study of Agaricus bisporus with 16 samples.

Results

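A total of 66 genes of the button mushroom Agaricus bisporus were expressed in the commercial strain A15 and silent in at least 1 of the strains 065 BP-8, 245 AMA-7 and 219 30P. A gene was a member if it had 2 FPKM or more in all 4 A15 libraries and less than 0.5 FPKM in all 4 libraries of another strain. FPKM counts sequenced fragments relative to transcript length in kilobases and to all fragments mapped in a library. The unit of the deposited values is not named and was inferred from them. The members were taken from 9520 genes present in all 16 files, of which 7841 met the A15 condition. The remaining 7775 genes that met it and were silent in no strain serve below as a comparison list. The rule used the levels in A15 and in the silent strains, so these levels are described here and not tested.

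The libraries came from compost colonised by mycelium, sampled on day 39 from spawning, during the first flush of mushrooms, and on day 27, when pins formed. Each of the 4 strains was sampled on both days, with 2 libraries for each of the 8 groups. All crates held the same kind of compost under a casing layer, and the strains differed in the spawn with which it was inoculated. The labels do not state whether the 2 compost samples of a group were from different crates. The p-values therefore cover no more than the variation between the duplicates, some of which may be technical.

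Agaricus bisporus is a basidiomycete that is grown as a heterokaryon, in which nuclei of different parents share the same cytoplasm. The gene numbers in the files match locus tags of the genome of H97, a homokaryon that was obtained from the commercial hybrid Horst U1. Wild and cultivated strains of a fungus can differ in their gene content as well as in which of their genes are transcribed. An FPKM near 0 does not tell these apart, and it does not tell them apart from a transcript too different in sequence to be assigned to the H97 gene. In such bulk samples, fewer cells or nuclei that express a gene and less RNA per cell cannot be told apart either.

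All 66 members matched a locus tag, and none carries a symbol, whereas 88 of the 9520 genes do. No role can therefore be given to any member, and they are named by the number of their locus tag (gene 121073 is AGABI2DRAFT_121073). None of the 88 genes with a symbol was listed at 0 in any library. The deposited values summed to 832823 to 913010 FPKM per library, and their read counts are not known. Among the 48 members with a value above 0 and below 0.5 FPKM, the smallest value above 0 had a median of 0.135 FPKM. The A15 files list 9520 genes, none of them at 0 in all 4 A15 libraries, in a row order of their own, and the files of the other strains list 10438. Strain and table cannot be told apart in any contrast with A15, whereas the other 3 strains share a table layout.

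Silence was rare among genes that A15 expressed. Of the 7841 genes, 34 were silent in 065 BP-8 (0.434%), 34 in 245 AMA-7 (0.434%) and 40 in 219 30P (0.51%). The members were 0.842% of the 7841 genes. They fell into 36 genes silent in 1 strain, 18 silent in 2 strains and 12 silent in all 3. By strain, 19 were silent in 219 30P alone, 10 in 065 BP-8 alone and 7 in 245 AMA-7 alone. A further 9 were silent in 065 BP-8 and 245 AMA-7, 6 in 245 AMA-7 and 219 30P, and 3 in 065 BP-8 and 219 30P.

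The silent values were mostly exact zeros. Over all silent combinations of member and strain there were 432 library values, of which 309 (71.5%) were listed at 0 and the highest was 0.46 FPKM. In 20 of the 66 members every library of every silent strain was listed at 0. In A15 the members were expressed at low levels, with a median of 6.81 FPKM (mean of the 4 libraries, range 2.52 to 118.82), and 39.4% reached 10 FPKM. In the comparison list the median was 34.36 FPKM and 85.9% reached 10 FPKM.

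**Figure D1:**
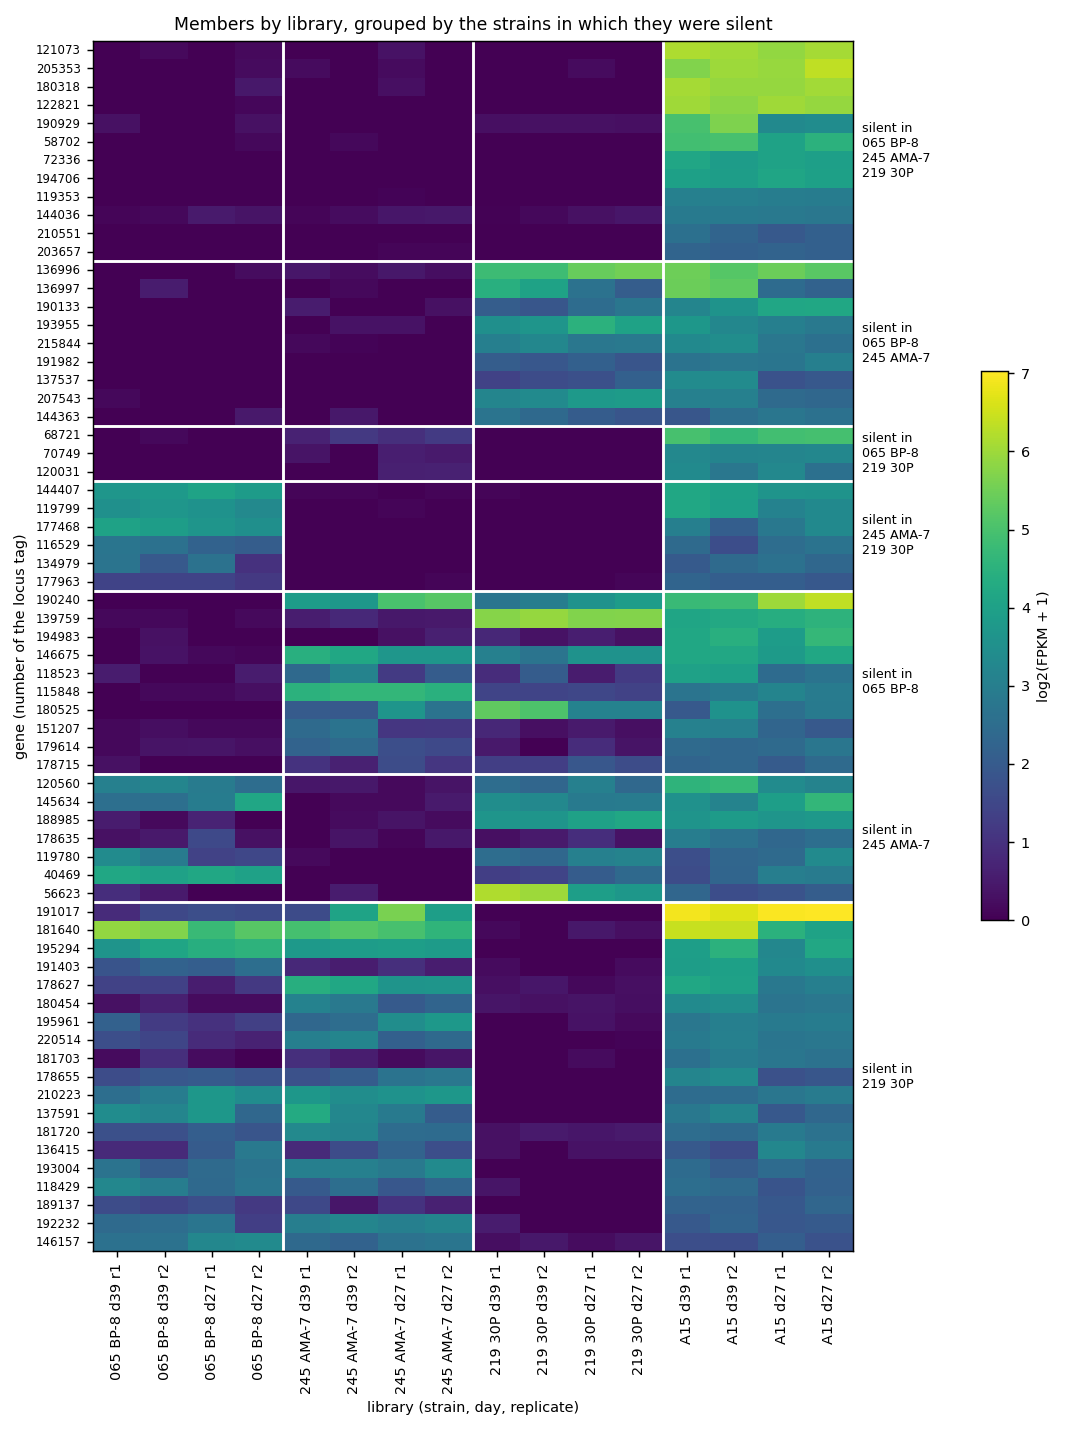
Level of each of the 66 members (rows) in each of the 16 libraries (columns) as log2(FPKM + 1), with members grouped by the strains in which they were silent and ordered within a group by their A15 mean. Within each group the columns of the silent strains are dark in all 4 libraries, and A15 stands at the right with 2 FPKM or more throughout.

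The 12 genes silent in all 3 other strains had the highest median A15 level of the 7 patterns, 19.7 FPKM. Of their 144 values in the other strains, 111 were listed at 0 and the highest was 0.41 FPKM. Gene 121073 had at most 0.14 FPKM in 065 BP-8, 0.27 FPKM in 245 AMA-7 and 0 in all libraries of 219 30P. In A15 it had 71.04 and 65.81 FPKM on day 39 and 58.15 and 65.99 FPKM on day 27. Its row neighbour, gene 180318, had at most 0.36 FPKM in 065 BP-8, 0.23 FPKM in 245 AMA-7 and 0 in 219 30P, against 66.52 and 59.85 FPKM on day 39 and 58.73 and 64.82 FPKM on day 27 in A15. In A15 the ranges of the 2 genes overlapped.

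Gene 122821 was listed at 0 in 11 of the 12 other libraries and at 0.08 FPKM in the remaining 1, a library of 065 BP-8 from day 27. Its A15 values were 63.86 and 54.81 FPKM on day 39 and 63.61 and 59.75 FPKM on day 27. Gene 205353 never exceeded 0.16 FPKM in the other strains and had 50.45 and 62.41 FPKM on day 39 and 60.22 and 81.05 FPKM on day 27 in A15. For all 4 of these genes the A15 libraries stayed above 50 FPKM.

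The other 8 were lower in A15. Gene 72336 was listed at 0 in all 12 other libraries, against 16.75 and 13.74 FPKM on day 39 and 15.41 and 14.5 FPKM on day 27 in A15. Gene 194706 was likewise at 0 in all 12, against 13.93 to 16.36 FPKM in A15. Gene 210551 was the third with 0 throughout, and it had 2.87 to 4.98 FPKM in A15. Gene 144036 differed from the other 11 in being above 0 in all 12 other libraries, with 0.07 to 0.41 FPKM in 065 BP-8, 0.07 to 0.37 FPKM in 245 AMA-7 and 0.03 to 0.35 FPKM in 219 30P. In A15 it had 5.9 to 6.26 FPKM.

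Gene 190929 was listed at 0 in 245 AMA-7 and had 0 to 0.24 FPKM in 065 BP-8 and 0.23 to 0.24 FPKM in 219 30P, against 9.18 to 49.34 FPKM in A15. Gene 58702, the row neighbour of gene 205353, had at most 0.11 FPKM in 065 BP-8 and in 245 AMA-7 and 0 in 219 30P, against 15.52 to 30.79 FPKM in A15. Gene 119353 was above 0 in a single library of the other strains, with 0.04 FPKM in 245 AMA-7, and had 6.67 to 7.32 FPKM in A15. Gene 203657 had at most 0.06 FPKM, also in 245 AMA-7, against 3.41 to 3.84 FPKM in A15. For the genes silent in all 3 strains the contrast is with A15 only, so strain and table cannot be told apart.

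Where another strain expressed a gene that was silent elsewhere, strains that share a table layout differed from each other. Genes 194983, 70749, 120031, 181703, 178635 and 68721, described below, were low in all 3 other strains, so that their contrast, too, is mainly with A15. Among the 9 genes silent in 065 BP-8 and 245 AMA-7, gene 136996 had at most 0.18 FPKM in 065 BP-8 and 0.36 FPKM in 245 AMA-7. In 219 30P it had 27.27 and 27.54 FPKM on day 39 and 41.21 and 45.3 FPKM on day 27, close to the 34.76 to 43.65 FPKM of A15. Its neighbour, gene 136997, had at most 0.45 FPKM in 065 BP-8 and 0.12 FPKM in 245 AMA-7, while 219 30P and A15 both held it higher on day 39 than on day 27. Gene 215844 was listed at 0 in all 065 BP-8 libraries and had at most 0.12 FPKM in 245 AMA-7, against 5.9 to 8.48 FPKM in 219 30P and 5.05 to 9.95 FPKM in A15.

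Other genes of this pattern had lower A15 means than genes 136996 and 136997. Gene 191982 was listed at 0 in all 8 libraries of 065 BP-8 and 245 AMA-7, with 2.6 to 3.42 FPKM in 219 30P and 5.37 to 7.2 FPKM in A15. Gene 137537 was also at 0 in all 8, with 1.63 to 3.48 FPKM in 219 30P and 2.4 to 9.45 FPKM in A15. Genes 207543 and 193955, which are neighbours, had A15 means of 5.8 and 8.52 FPKM. Gene 207543 had 8.13 to 13.43 FPKM in 219 30P, above all A15 libraries (4.09 to 7.39 FPKM). Gene 193955 had 10.38 to 21.9 FPKM in 219 30P, which overlapped the 6.11 to 12.24 FPKM of A15. Gene 190133 went the other way, with 2.67 to 5.8 FPKM in 219 30P and 8.13 to 17.34 FPKM in A15, and these ranges did not overlap.

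The 6 genes silent in 245 AMA-7 and 219 30P had at least 1.01 FPKM in every library of 065 BP-8. Gene 144407 had at most 0.07 FPKM in 245 AMA-7 and 0.06 FPKM in 219 30P. It had 11.91 to 16 FPKM in 065 BP-8, a range that overlapped the 11.19 to 17.27 FPKM of A15. Its neighbour, gene 119799, had 8.81 to 11.87 FPKM in 065 BP-8 and 7.59 to 17.14 FPKM in A15, and at most 0.06 FPKM in the silent strains. Over the 6 genes, the highest of 48 silent values was 0.07 FPKM, and 41 were listed at 0.

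Genes 177468, 134979 and 116529 were listed at 0 in all 8 libraries of 245 AMA-7 and 219 30P. Gene 177468 had 10.27 to 15.57 FPKM in 065 BP-8 and 3.32 to 9 FPKM in A15, so that all 4 libraries of 065 BP-8 lay above those of A15. Its neighbour, gene 134979, had 1.01 to 5.49 FPKM in 065 BP-8 and 2.99 to 5.13 FPKM in A15, which overlapped. Gene 116529 had 3.18 to 5.65 FPKM in 065 BP-8 and 2.17 to 5.44 FPKM in A15. Gene 177963 was lower in 065 BP-8, with 1.24 to 1.66 FPKM, against 2.8 to 3.82 FPKM in A15.

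The 3 genes silent in 065 BP-8 and 219 30P were also low in 245 AMA-7. Gene 68721 had 0.6 to 1.28 FPKM there, against 24.77 to 30.46 FPKM in A15. Genes 70749 and 120031 did not exceed 0.51 and 0.56 FPKM in 245 AMA-7, and each was listed at 0 in at least 1 of its libraries. These 2 genes lay just above the limit for silence in 245 AMA-7, so that their grouping rests on the threshold. In 219 30P all 3 genes were listed at 0 in every library.

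Silence in 219 30P alone was the commonest pattern. Gene 191017, the member with the highest A15 level, was listed at 0 in all 4 libraries of 219 30P. It had 0.81 to 2.21 FPKM in 065 BP-8, and in 245 AMA-7 it had 2.05 and 15.94 FPKM on day 39 and 47.73 and 14.21 FPKM on day 27. In A15 it had 118.92 and 101.09 FPKM on day 39 and 126.02 and 129.26 FPKM on day 27. The strains thus ran in the order 219 30P, 065 BP-8, 245 AMA-7 and A15 without overlap except that 1 library of 245 AMA-7 lay within the range of 065 BP-8.

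Gene 181640 had at most 0.37 FPKM in 219 30P. It had 26 to 58.49 FPKM in 065 BP-8, 23.08 to 35.31 FPKM in 245 AMA-7 and 15.68 to 85.7 FPKM in A15, which overlapped. Gene 195294 was listed at 0 in all libraries of 219 30P, with 11.55 to 22.46 FPKM in 065 BP-8, 12.59 to 14.29 FPKM in 245 AMA-7 and 8.54 to 21.81 FPKM in A15. For the 19 genes of this pattern, 46 of 76 values in 219 30P were listed at 0.

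The other strains did not hold these 19 genes at equal levels. Gene 210223, at 0 in all libraries of 219 30P, had 4.8 to 12.25 FPKM in 065 BP-8 and 9.94 to 12.27 FPKM in 245 AMA-7, against 4.59 to 6.6 FPKM in A15. Gene 192232 had 7.06 to 8.19 FPKM in 245 AMA-7, against 2.72 to 3.83 FPKM in A15, with no overlap. Gene 181703 was nearly silent elsewhere too, with 0 to 0.91 FPKM in 065 BP-8 and 0.16 to 0.92 FPKM in 245 AMA-7, against 5.03 to 6.68 FPKM in A15. The neighbours 193004 and 118429 had A15 means of 3.94 and 3.82 FPKM, and in 245 AMA-7 gene 193004 was above every A15 library, with 6.19 to 9.2 FPKM.

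Among the 10 genes silent in 065 BP-8 alone, gene 190240 was listed at 0 in all 4 of its libraries. It had 12.09 to 35.67 FPKM in 245 AMA-7, 5.58 to 13.69 FPKM in 219 30P and 26.28 to 81.05 FPKM in A15. Gene 139759 had at most 0.13 FPKM in 065 BP-8 and 0.37 to 0.74 FPKM in 245 AMA-7, and was the member of this pattern that was highest in 219 30P, with 50.57 to 59.6 FPKM, against 16.57 to 22.15 FPKM in A15. Gene 115848 had at most 0.21 FPKM in 065 BP-8, 21.03 to 24.28 FPKM in 245 AMA-7, 1.63 to 1.82 FPKM in 219 30P and 5.46 to 7.96 FPKM in A15. These last 2 genes each had a different strain at the top, and in neither did the strains' ranges overlap.

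Gene 194983 reached 13.87 to 24.38 FPKM in A15 and did not exceed 0.24 FPKM in 065 BP-8, 0.52 FPKM in 245 AMA-7 or 0.72 FPKM in 219 30P. It was thus close to silence in all 3. Gene 180525 was listed at 0 in all libraries of 065 BP-8, with 2.89 to 11.77 FPKM in 245 AMA-7, 7.7 to 38.82 FPKM in 219 30P and 2.91 to 10.97 FPKM in A15. Gene 118523 had 0 to 0.45 FPKM in 065 BP-8, 1.3 to 7.83 FPKM in 245 AMA-7, 0.45 to 3.11 FPKM in 219 30P and 4.51 to 15.33 FPKM in A15.

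Among the 7 genes silent in 245 AMA-7 alone, gene 40469 was listed at 0 in all 4 of its libraries. It had 15.3 to 17.23 FPKM in 065 BP-8, 1.45 to 4.28 FPKM in 219 30P and 2.13 to 6.97 FPKM in A15. Gene 56623 reached 0.44 FPKM in 1 library of 245 AMA-7 and 0.89 FPKM in 1 library of 065 BP-8. In 219 30P it had 72.36 and 62.56 FPKM on day 39 and 14.46 and 12.04 FPKM on day 27, against 2.19 to 3.99 FPKM in A15. It had the highest ratio to A15 of any member in any strain, 13.633 in 219 30P.

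Gene 120560, the highest of this pattern in A15, had 4.73 to 8.18 FPKM in 065 BP-8, 0.14 to 0.36 FPKM in 245 AMA-7, 4 to 7.3 FPKM in 219 30P and 7.89 to 24.86 FPKM in A15. Gene 188985 had at most 0.63 FPKM in 065 BP-8 and 0.3 FPKM in 245 AMA-7. In 219 30P it had 11.56 to 17.14 FPKM, which overlapped the 11.38 to 13.46 FPKM of A15. Gene 178635 did not exceed 0.42 FPKM in 065 BP-8 and 219 30P but for a single library of each from day 27, with 1.91 and 0.9 FPKM, against 4.06 to 6.81 FPKM in A15.

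Several members stood near the thresholds. The lowest A15 values of members were 2.11 FPKM for gene 136415, 2.13 FPKM for gene 40469 and 2.15 FPKM for gene 146157. Genes 177999, 122852 and 121541 were silent in another strain and missed the A15 threshold with minima of 1.99, 1.98 and 1.92 FPKM. On the other side, the highest values in a silent strain were 0.46 FPKM for gene 190133 in 245 AMA-7, 0.46 FPKM for gene 192232 in 219 30P and 0.45 FPKM for gene 118523 in 065 BP-8. The nearest genes outside were 195962 with a maximum of 0.53 FPKM in 219 30P, 133643 with 0.57 FPKM in 065 BP-8 and 191018 with 0.57 FPKM in 219 30P.

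Of the 198 combinations of member and other strain, 108 were silent, and in the 90 others the level ranged widely. In 53 of the 90 all 4 libraries had 2 FPKM or more. The other 37 lay between, with at least 1 library below 2 FPKM and at least 1 at 0.5 FPKM or more. The mean level there, divided by the A15 mean, had a median of 0.566 for 32 members in 065 BP-8, 0.667 for 32 in 245 AMA-7 and 0.52 for 26 in 219 30P. In the comparison list the medians were 1.009, 0.996 and 0.979.

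All 4 libraries lay below every A15 library for 13 of 32 members in 065 BP-8, 10 of 32 in 245 AMA-7 and 12 of 26 in 219 30P. The shares of the comparison list below every A15 library were 7.74%, 10.4% and 8.91%. Members lay above every A15 library in 3, 5 and 3 cases, in the same order of strains, and 5.39%, 8.84% and 6.43% of the comparison list did. A15 entered these ratios and the rule, so that no test is given.

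**Figure D2:**
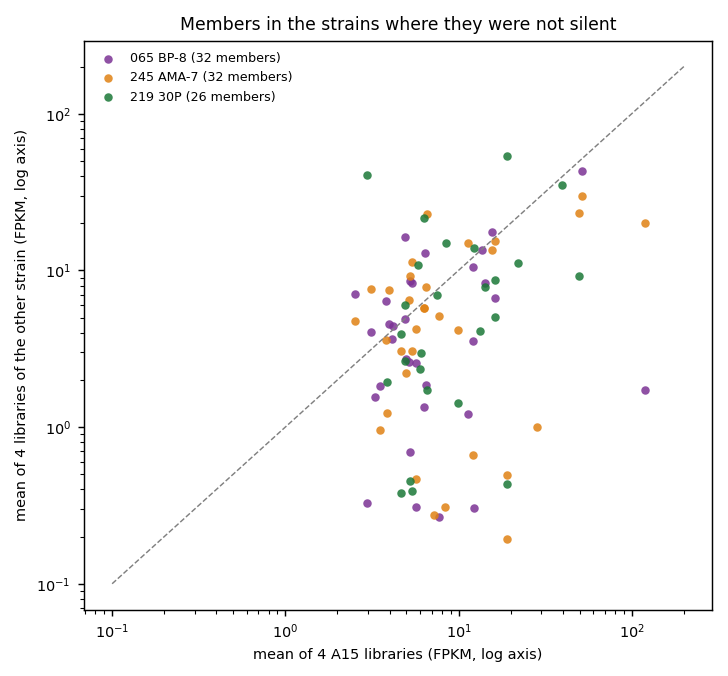
Mean FPKM of each member in each strain where it was not silent (vertical, log axis) against its mean in A15 (horizontal, log axis), 4 libraries each; the dashed line marks equal levels. Of the 90 points 64 lie below the line, and gene 56623 of 219 30P lies farthest above it, at 13.633 times its A15 mean.

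The 3 other strains were compared with each other for members silent in neither strain of a pair. The rule did not use the difference between these strains, but its limit for silence decided which members entered, and a member that is low in one strain passed the filter on low values only through the other. Tests are therefore given for members with a mean of 1 FPKM or more in each strain of a pair. This restriction was chosen after the data were seen. The levels of the others, and counts of calls that include them, are a description. The limit for silence and the filter shape those counts, so nothing is concluded from them beside the shares of all genes. Each difference is given in log2(FPKM + 1), averaged over the days, ± its standard error in limma, from 4 libraries of each strain. The adjusted p follows Benjamini and Hochberg, over all genes tested. Since the pseudocount of 1 FPKM is large beside levels of a few FPKM, these differences understate ratios. With a pseudocount of 5 FPKM, all 48 differences of the genes picked by the naming rule, here and below, kept their call, and 26 of them were smaller by more than 1.5 times.

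Between 245 AMA-7 and 219 30P, 10 members were silent in neither. With a mean of 1 FPKM in each there were 6, of which 4 were higher and 1 was lower in 245 AMA-7, against 32.3% and 26% of 8493 such genes. Gene 115848 was higher in 245 AMA-7 by 3.13 ± 0.1 (limma, adjusted p = 2.27e-07), with no overlap of the libraries. Gene 146675 had 11.81 to 20.5 FPKM in 245 AMA-7 and 5.5 to 10.99 FPKM in 219 30P, a difference of 0.76 ± 0.11 (adjusted p = 0.000458). Over all 9 members that passed the filter, 8 were called, 6 of them higher in 245 AMA-7, where 32.5% of 8774 genes were higher and 26.4% lower (59% in all). The 3 added in this way were low in 1 of the strains, so the counts over all 9 are a description only. Gene 139759 had 0.37 to 0.74 FPKM in 245 AMA-7 and 50.57 to 59.6 FPKM in 219 30P, and gene 179614 had 1.92 to 4.41 FPKM in 245 AMA-7 and 0 to 0.84 FPKM in 219 30P.

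Between 065 BP-8 and 219 30P, 7 members were silent in neither. With a mean of 1 FPKM in each there were 4, of which 1 was higher and 1 lower in 065 BP-8, against 21.6% and 17.4% of 8490 such genes. Gene 40469 was higher in 065 BP-8 by 2.32 ± 0.12 (limma, adjusted p = 1.55e-05), without overlap. Gene 119780 was lower by -0.47 ± 0.14 (adjusted p = 0.0302), and its libraries overlapped. Over all 6 members that passed the filter, 4 were called, 3 of them lower in 065 BP-8, where 21.9% of 8731 genes were higher and 18.1% lower (39.9% in all). The added members were gene 56623, with at most 0.89 FPKM in 065 BP-8 and at least 12.04 FPKM in 219 30P, and gene 188985, with at most 0.63 FPKM in 065 BP-8 and at least 11.56 FPKM in 219 30P.

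Between 065 BP-8 and 245 AMA-7, 19 members, all silent in 219 30P alone, could be compared. With a mean of 1 FPKM in each there were 15, of which 3 were higher and 9 lower in 065 BP-8, against 22.2% and 23.5% of 8501 such genes. Gene 178627 had 0.47 to 1.61 FPKM in 065 BP-8 and 11.38 to 20.13 FPKM in 245 AMA-7, a difference of -2.85 ± 0.16 (limma, adjusted p = 1.5e-05). Gene 195961 had 1 to 3.55 FPKM in 065 BP-8 and 4.11 to 12.4 FPKM in 245 AMA-7 (-1.58 ± 0.22, adjusted p = 0.00106), and gene 220514 had 0.59 to 2.23 FPKM and 3.46 to 8.13 FPKM (-1.53 ± 0.14, adjusted p = 0.00013). Over all 18 members that passed the filter, 14 were called, 4 higher and 10 lower, where 22.4% of 8745 genes were higher and 24% lower (46.4% in all), and without replicate 2 of 245 AMA-7 from day 27 the number was 9. Those added were low in 1 of the strains, so the counts over all 18 are a description only. Among them, gene 180454 had 0.15 to 0.52 FPKM in 065 BP-8 and 2.95 to 7.72 FPKM in 245 AMA-7. Gene 191403 went the other way, with 2.52 to 4.79 FPKM in 065 BP-8 and 0.47 to 0.94 FPKM in 245 AMA-7.

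The files of 219 30P list genes in nearly the same order as the H97 reference table, so that neighbouring rows are neighbouring genes. In this order, adjacent rows held 7 pairs of members and no longer run, 14 members in all. In each of the 7 pairs both genes were silent in the same strains. Among all 2145 possible pairs of members, 16.6% were silent in the same strains. Consecutive members 2 to 10 rows apart shared their strains in 3 of 9 cases, those 11 to 50 rows apart in 5 of 15 and those over 50 rows apart in 1 of 18.

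**Figure D3:**
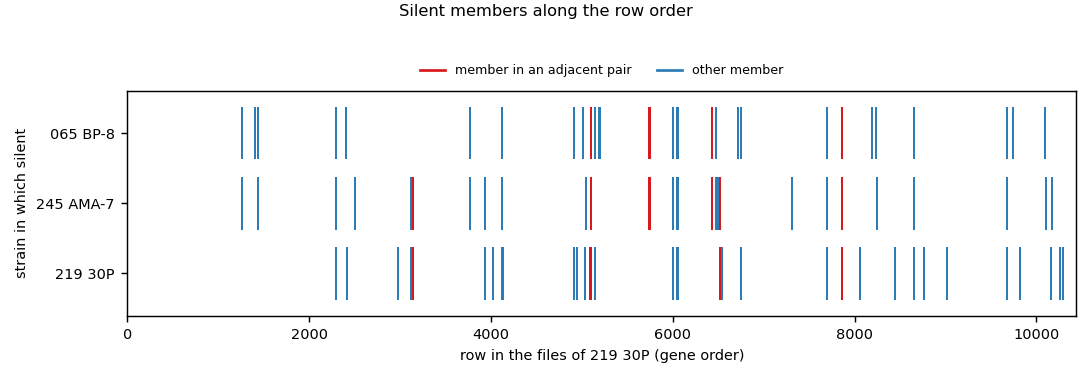
Position of each silent member in the row order of the 219 30P files (horizontal, row number), with a line of ticks for each strain in which it was silent. Ticks in red belong to the 7 adjacent pairs, and the groups of ticks near rows 5100 and 6500 hold the densest windows of 100 rows.

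The pairs covered 4 of the 7 patterns of silence. Genes 121073 and 180318, and genes 205353 and 58702, were silent in all 3 other strains. Genes 136996 and 136997, and genes 207543 and 193955, were silent in 065 BP-8 and 245 AMA-7. Genes 144407 and 119799, and genes 134979 and 177468, were silent in 245 AMA-7 and 219 30P. Genes 193004 and 118429 were silent in 219 30P alone. A gap of 1 row added 1 pair, genes 137537 and 144363, both silent in 065 BP-8 and 245 AMA-7. Gene 193979, which lies between them and is not a member, was also listed at 0 in every library of these strains.

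Some rows next to the pairs were expressed where the pair was silent. Of the 14 genes that flank the 7 pairs, 8 had 2 FPKM or more in every library of the silent strains, and 2 were below 0.5 FPKM in all of them. In A15, too, 8 of the 14 had 2 FPKM or more in every library, though not all of them were the same genes. Of all 10438 genes, 74.7% had 2 FPKM or more in every library of 065 BP-8, 75.2% in 245 AMA-7 and 75% in 219 30P, each strain taken alone. Those 2 were gene 59298, with a mean of 0.43 FPKM in A15, and gene 54972, with a mean of 0.17 FPKM in A15. Beside gene 180318, gene 138394 had means of 296.74 FPKM in 065 BP-8, 293.3 FPKM in 245 AMA-7, 480.98 FPKM in 219 30P and 338.36 FPKM in A15. Beside the pair 207543 and 193955, gene 207539 had means of 21.91, 24.4, 23.76 and 21.96 FPKM in the same order of strains. In these 2 cases a row expressed in all 4 strains lay next to a pair that was silent in some.

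**Figure D4:**
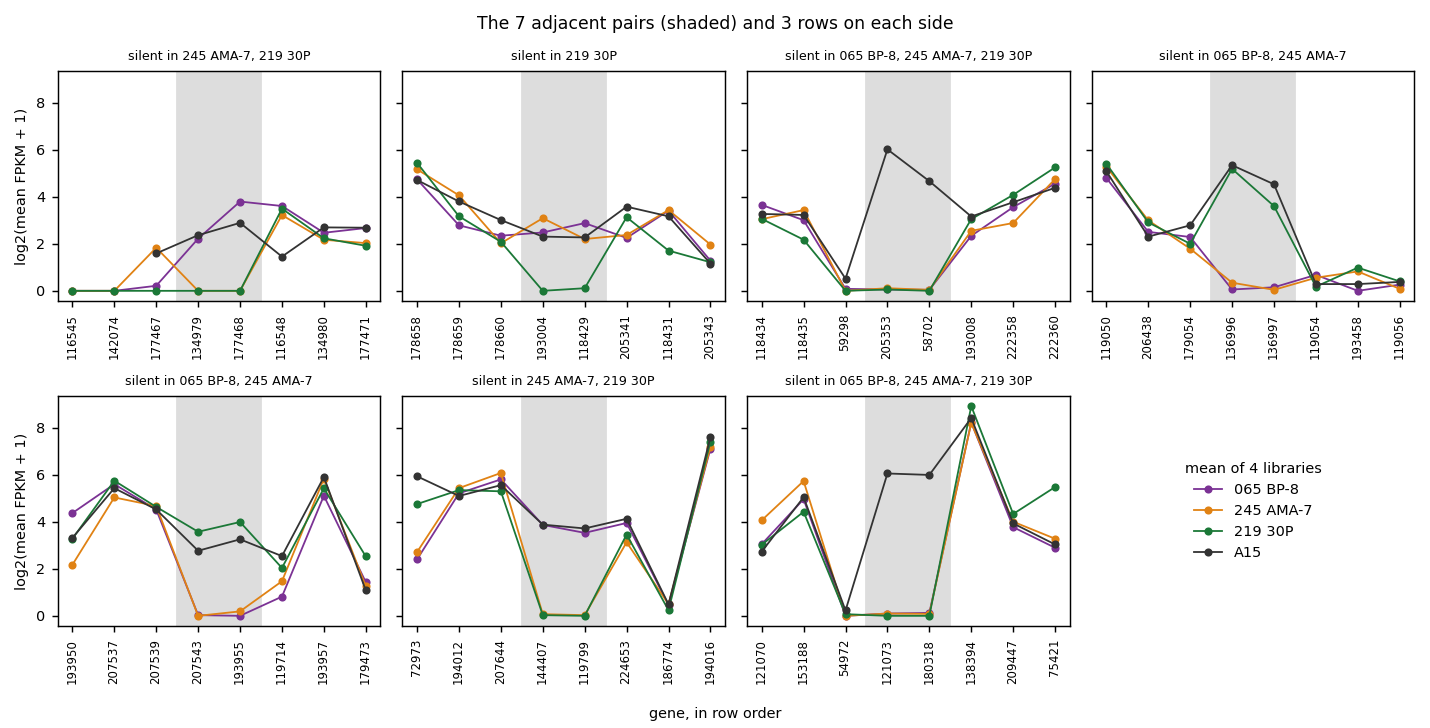
Mean level of 4 libraries of each strain, as log2(mean FPKM + 1), for the 7 adjacent pairs (shaded) and 3 rows on each side, in row order. Within the shading the silent strains lie at the bottom for both genes of a pair. Of the 14 rows next to the shading, 8 had 2 FPKM or more in every library of the silent strains; genes not in the A15 files have no A15 point.

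The genes in the rows next to any member were also counted, a description chosen after the data were seen and not tested. A gene next to 2 members was counted once for each, such as the silent gene 193979 between genes 137537 and 144363. Counting the rows on either side of a member within the same stretch of the reference, of 58 neighbours of members silent in 065 BP-8, 46.6% had 2 FPKM or more in all 4 libraries of 065 BP-8, against 74.7% of all 10438 genes. The shares were 40.7% of 54 neighbours against 75.2% in 245 AMA-7, and 41.2% of 68 neighbours against 75% in 219 30P. The silent share among neighbours was 34.5%, 33.3% and 26.5%, against 12.8%, 12.3% and 12.7% of all genes. Neighbours that were members themselves were not counted, and up to 8 of the silent neighbours per strain are not in the A15 files. The share of these neighbours expressed in A15 was not counted. The lower shares are therefore not shown to be particular to the silent strain.

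Members were spread unevenly over the row order. The windows used here took no account of where a stretch of the reference ends. When the 10438 rows were divided into 105 windows of 100 rows, 68 windows held no member and 20 held 1. The window of rows 5001 to 5100 held 6, and the next window held 4. The 6 lay on 2 stretches of the reference, genes 151207, 178627 and 178635 on one and genes 178655, 193004 and 118429 on the other. Rows 6401 to 6500 held 5 and rows 6501 to 6600 held 3. The adjacent pairs 193004 and 118429, 205353 and 58702, 207543 and 193955, and 144407 and 119799 were among the members of these windows. The members of these windows did not all share their strains. In rows 5001 to 5200, 4 were silent in 219 30P alone, 2 in 065 BP-8 alone, 1 in 245 AMA-7 alone, 1 in 065 BP-8 and 219 30P, and 2 in all 3. In rows 6401 to 6600, 4 were silent in 065 BP-8 and 245 AMA-7 and 2 in 245 AMA-7 and 219 30P. Of the others there, 1 was silent in 245 AMA-7 alone and 1 in 219 30P alone.

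Within A15 the comparison of day 39 with day 27 asked whether members changed between pins and the first flush. The rule requires 2 FPKM on both days and does not use the difference. All 66 members were tested, and 17 rose and 5 fell, against 37.9% and 18.9% of 8751 genes (56.8% in either direction). Those genes did not have to reach 2 FPKM in each library and were not matched to the members in level, so the shares are not like for like. The median change was 0.05 for the members and 0.24 for all genes tested. Scaling moved this balance: median-ratio scaling, which brought the median of all genes to 0, gave 10 rises and 10 falls among members, and quantile normalization gave 8 rises and 21 falls. Day 39 was the higher day for 66.7% of all genes called on the deposited values, for 49.5% after median-ratio scaling and for 46.5% after quantile normalization, which moved the median of all genes to -0.06.

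Gene 136997 had 42.46 and 37.74 FPKM on day 39 and 4.51 and 3.6 FPKM on day 27 in A15. This rise of 3.03 ± 0.18 (limma, adjusted p = 1.3e-05) was the largest of any member. Its neighbour 136996, silent in the same strains, had 43.65 and 34.76 FPKM on day 39 and 43.04 and 36.52 FPKM on day 27 (-0.02 ± 0.16, adjusted p = 0.907). Genes that were silent together thus did not all change together in A15.

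Gene 181640 rose by 2.15 ± 0.16 (adjusted p = 3.89e-05 in limma), with 85.7 and 83.3 FPKM on day 39 and 21.27 and 15.68 FPKM on day 27. Gene 190929, which is silent in all 3 other strains, rose by 1.92 ± 0.23 (adjusted p = 0.000291), with 30.37 and 49.34 FPKM on day 39 and 9.18 and 9.77 FPKM on day 27. Gene 137537 rose by 1.54 ± 0.2 (adjusted p = 0.000458), with 9.4 and 9.45 FPKM on day 39 and 2.4 and 2.79 FPKM on day 27, or by 1 with quantile normalization. In each of these genes both day 39 libraries lay above both day 27 libraries.

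Gene 190240 fell by 1.4 on the log2 scale (SE 0.15, limma, adjusted p = 0.000193), with 26.28 and 26.91 FPKM on day 39 and 63.33 and 81.05 FPKM on day 27. Gene 136415 fell by 1.25 (SE 0.24, adjusted p = 0.00309), with 2.93 and 2.11 FPKM on day 39 and 8.48 and 6.26 FPKM on day 27. The falls of gene 40469 (-0.98 ± 0.26, adjusted p = 0.0133) and gene 145634 (-0.94 ± 0.26, adjusted p = 0.0168) did not pass without some of the libraries. The first did not pass without replicate 1 of day 39 (-0.66) or of day 27 (-0.94), and the second not without replicate 2 of day 39 (-0.73) or of day 27 (-0.59).

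Of the 12 genes silent in all 3 other strains, 2 rose in A15 and 10 were not called. Besides gene 190929 the other was gene 58702 (0.67 ± 0.18, limma, adjusted p = 0.0152). Its neighbour 205353 had a change of -0.31 ± 0.18 (adjusted p = 0.166). Among the 19 genes silent in 219 30P alone, 6 were called higher on day 39 and 1 lower, and among the 9 silent in 065 BP-8 and 245 AMA-7, 4 and 1. Of all genes tested, 37.9% were higher and 18.9% lower, and the balance over all members depended on the scaling, as given above.

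**Figure D5:**
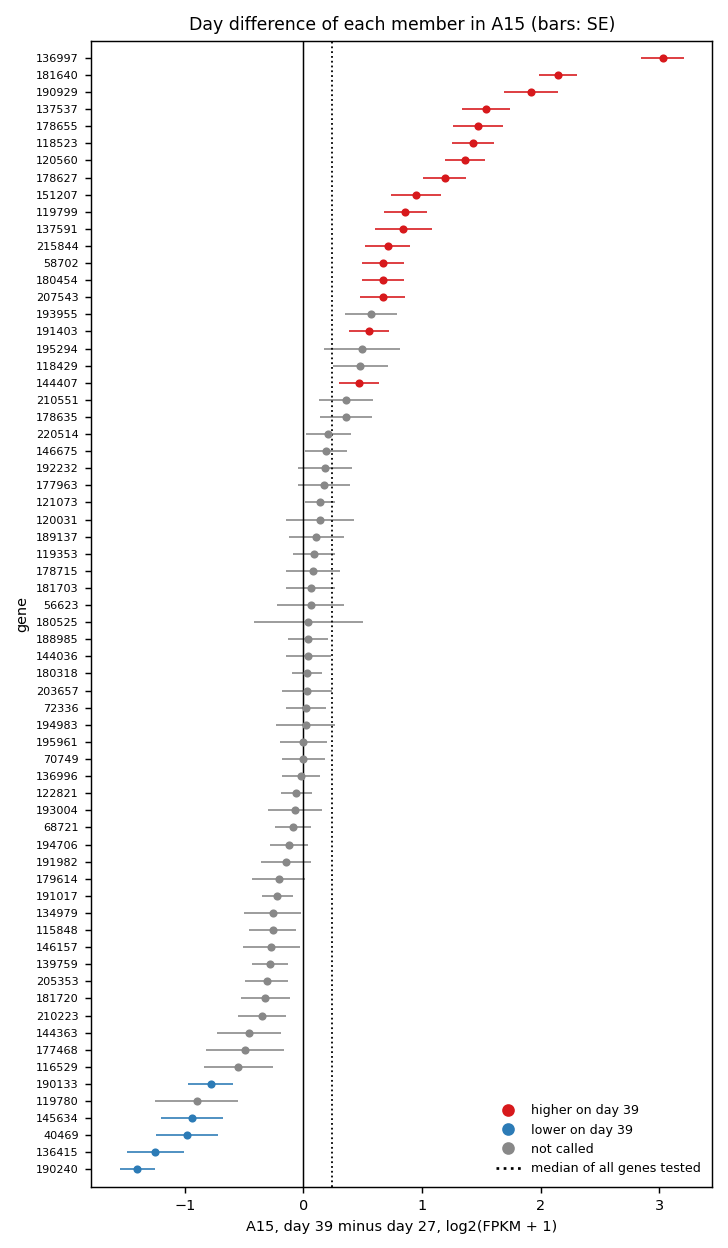
Difference of log2(FPKM + 1) between day 39 and day 27 in A15 for each of the 66 members (points, with bars of 1 standard error), 2 libraries per day. The 17 rises and 5 falls are coloured, and the dotted line marks the median of all genes tested, 0.24.

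In 219 30P, 22 of the 26 members not silent there could be tested for a change between the days. Of these, 5 rose and 9 fell, against 28.5% and 35.5% of 8685 genes (64% in all). As in A15, the genes behind such shares, here and in the other strains, were not matched to the members in level. The count of 14 was 7 without replicate 1 of day 39, 8 without replicate 2 of day 39 and 7 without replicate 2 of day 27. Gene 56623 rose by 2.27 ± 0.13 (limma, adjusted p = 7.8e-05). Gene 180525 rose by 2.07 ± 0.13 (adjusted p = 9.52e-05), with 38.82 and 32.53 FPKM on day 39 and 7.7 and 7.74 FPKM on day 27. Gene 136997 rose by 1.88 ± 0.24 (adjusted p = 0.00097), and its neighbour 136996 fell by 0.64 (SE 0.1, adjusted p = 0.00225).

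In 245 AMA-7, 25 of 32 members could be tested, and 9 rose and 4 fell, against 40.9% and 27.5% of 8695 genes (68.4% in all). Quantile normalization turned this to 4 rises and 9 falls and moved the median change of all genes to -0.01, against 0.17 as deposited. Of all genes called, 49.3% were then higher on day 39, against 59.8% as deposited. Gene 151207 rose by 1.43 ± 0.21 (limma, adjusted p = 0.000583), with 4.42 and 5.37 FPKM on day 39 and 1.16 and 1.2 FPKM on day 27. Gene 190240 fell by 1.3 (SE 0.13, adjusted p = 7.64e-05). It also fell in 219 30P, by 0.87 (SE 0.18, adjusted p = 0.00595), so that it was lower on day 39 in each of the 3 strains that expressed it. Gene 195961 fell by 1.16 (SE 0.17, adjusted p = 0.000744), with 4.11 and 4.75 FPKM on day 39 and 9.88 and 12.4 FPKM on day 27. Gene 180525 fell by 1.19 (SE 0.31, adjusted p = 0.00981), a fall that was 0.7 without replicate 1 of day 27 and did not pass without a filter on low values (adjusted p = 0.0662).

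In 065 BP-8, 27 of 32 members could be tested, and 3 rose and 3 fell, against 29.4% and 23.4% of 8643 genes (52.8% in all). Gene 119780 rose by 1.7 ± 0.24 (limma, adjusted p = 0.00351), with 9.46 and 6.59 FPKM on day 39 and 1.63 and 1.84 FPKM on day 27. The other 5 calls did not pass without either replicate of day 39, where 1 member passed, and 10 members passed without replicate 1 of day 27. Their changes kept their direction without replicate 1 and without replicate 2 of day 39. They were -1.62 and -1.59 for gene 136415 (-1.61 with all 4 libraries), -0.64 and -0.67 for gene 146157 (-0.65) and -0.62 and -1.03 for gene 210223 (-0.83). For the 2 other genes with a rise they were 0.73 and 0.92 for gene 181640 (0.82) and 0.71 and 0.93 for gene 220514 (0.82).

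Whether the change between days differed from that of A15 was tested for members not silent in the strain, some of which passed the filter on low values only through A15. In 219 30P 11 of 26 members differed, 4 with a higher and 7 with a lower day effect than in A15, against 11.9% higher and 36.8% lower of 8800 genes (48.7% in all). Of the 17 members with 2 FPKM or more in all 4 libraries of 219 30P, 4 were higher and 6 lower, against 12.7% and 38.2% of 7536 genes with 2 FPKM in all libraries of both strains. The count of 11 was 7 without replicate 2 of A15 from day 27, and median-ratio scaling turned the split to 6 higher and 4 lower. That scaling moved the median difference of all genes to -0.03, against -0.36 as deposited.

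In 245 AMA-7 5 of 32 differed, 2 with a higher and 3 with a lower day effect, against 11.9% and 19.1% of 8807 genes (31.1% in all). Of the 19 with 2 FPKM or more in all of its libraries, 1 was higher and 3 were lower, against 12.5% and 19.7% of 7543 genes. In 065 BP-8 5 of 32 differed, 1 with a higher and 4 with a lower day effect, against 9.19% and 18.1% of 8773 genes (27.3% in all). Of the 17 with 2 FPKM or more in all of its libraries, 4 differed, each lower, where 9.49% of 7524 genes were higher and 18.7% lower. The count of 5 in 065 BP-8 was 3 without either replicate of its day 39 and 8 without replicate 2 of its day 27. Median-ratio scaling turned its split to 3 higher and 2 lower, with a median of all genes of -0.03, against -0.19 as deposited.

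Gene 178655, silent in 219 30P, gave the smallest p in both of the strains that express it besides A15. In A15 it had 8.11 and 9.43 FPKM on day 39 and 2.35 and 2.71 FPKM on day 27, a rise of 1.47 ± 0.21 (limma, adjusted p = 0.000688). In 245 AMA-7 it had 2.37 and 3.14 FPKM on day 39 and 5.41 and 5.93 FPKM on day 27, a fall of 0.84 (SE 0.19, adjusted p = 0.00633). The difference between the day effects of 245 AMA-7 and A15 was -2.3 ± 0.26 (adjusted p = 0.000386). In 065 BP-8 it had 2.09 and 2.76 FPKM on day 39 and 2.94 and 2.48 FPKM on day 27, and the difference from A15 was -1.59 ± 0.28 (adjusted p = 0.00671).

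Gene 119780, silent in 245 AMA-7, had 2.2 and 3.96 FPKM on day 39 and 4.36 and 9.25 FPKM on day 27 in A15, which did not pass (adjusted p = 0.059 in limma). Its day effect in 065 BP-8 lay above that of A15 by 2.6 ± 0.49 (adjusted p = 0.00813). For gene 56623, also silent in 245 AMA-7, the day effect in 219 30P lay above that of A15 by 2.2 ± 0.32 (adjusted p = 0.000976). Gene 137537, silent in 065 BP-8 and 245 AMA-7, had 1.63 and 2.08 FPKM on day 39 and 2.27 and 3.48 FPKM on day 27 in 219 30P, and its day effect there lay below that of A15 by a log2 difference of -1.97 ± 0.29 (adjusted p = 0.00108).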

How the data were processed

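Per the labels' protocols, RNA of compost samples from 4 strains on 2 days was made into Illumina libraries. BWA, Bowtie and RSEM are the tools named in the submitters' processing notes; what each did, in which version and on which genome build, is not given in the sources used here. Deposited values are taken to be FPKM, a unit inferred from their 2 decimals and their sums of 832823 to 913010, which differ between libraries. Depth is not known, so no counting intervals are given. The rule and the tests do not cover 918 genes that only the files of the other strains list; 729 of them were listed at 0 in all 12 other libraries. Of 10438 identifiers 10373 matched locus tags of the assembly Agabi_varbisH97_2, used only for names and neighbours.

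The members and lists were chosen with earlier results of these data known. Differences of log2(FPKM + 1) were tested by limma-trend (limma version 3.58.1, R version 4.3.3, Benjamini-Hochberg adjustment over all genes of a fit, threshold 0.05). Each fit held the libraries of the strains compared and the genes whose mean over them reached 1 FPKM, since strains in which a member is at 0 have no spread. Fits of 1 strain had 4 libraries and 2 residual degrees of freedom, and those of 2 strains 8 libraries and 4. Named genes had the highest A15 means in each pattern of silence, lay in the pairs with the highest A15 sums, had the largest called changes without overlap or the smallest adjusted p for a difference of day effects, or lay nearest the thresholds. Further members and the flanking genes were named after their values were seen, to describe each pattern and each pair. Tests between pairs of the other strains are given for members with a mean of 1 FPKM or more in each, a restriction chosen after the data were seen. The fits were tested on simulated data. Tables and plots were made in Python 3.11.15 (matplotlib 3.10.9, numpy 2.4.6, pandas 2.3.3). Libraries with equal replicate numbers entered unpaired: the labels tie the numbers to no shared crate or day.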

Additional observations from a re-analysis of the deposited data

Results flagged for a closer look

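The results below stand out because the change between days differed between 2 strains by a test of the difference itself (limma interaction on log2(FPKM + 1), Benjamini-Hochberg adjusted over all genes). They are the 4 members with the smallest adjusted p in each strain. In 219 30P against A15 the differences were 2.2 for gene 56623, -1.97 for gene 137537, -1.2 for gene 207543 and -1.66 for gene 120560. In 245 AMA-7 against A15 they were -2.3 for gene 178655, -1.87 for gene 181640, 1.09 for gene 181720 and -1.16 for gene 195961. In 065 BP-8 against A15 they were -1.59 for gene 178655, 2.6 for gene 119780, -1.33 for gene 181640 and -0.95 for gene 120560. The A15 libraries are shared by all 3 comparisons. The difference of gene 120560 in 065 BP-8 did not pass with median-ratio scaling (-0.78, adjusted p = 0.0591), with quantile normalization (-0.79, adjusted p = 0.0521) or without any 1 of 6 of its 8 libraries. Under quantile normalization the difference of gene 207543 in 219 30P was -0.65. Strain and table layout cannot be told apart in these differences.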

How the results depend on the processing

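The number of members depends on the thresholds of the rule. An A15 minimum of 1 FPKM gave 101 members and one of 5 FPKM gave 36, and silence below 0.2 FPKM gave 43. With a minimum of 1 FPKM, 52 genes were silent in 065 BP-8. With a minimum of 5 FPKM, 22 were silent in 065 BP-8, 20 in 245 AMA-7 and 23 in 219 30P, and silence below 0.2 FPKM left 22 in 065 BP-8 and 22 in 245 AMA-7. Median-ratio scaling gave 65 members, of which 61 were shared. Leaving out 1 library gave 66 to 72 members, with 34 to 37 silent in 065 BP-8, 34 to 37 in 245 AMA-7, 40 to 44 in 219 30P and 12 to 13 in all 3.

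Without 1 library, called members between the days numbered 16 to 21 in A15, 1 to 10 in 065 BP-8, 10 to 13 in 245 AMA-7 and 7 to 10 in 219 30P. For differences of the day effect from A15 they numbered 3 to 8 in 065 BP-8, 4 to 5 in 245 AMA-7 and 7 to 11 in 219 30P. For pairs of strains the counts include members low in one strain, which passed the filter only through the other, and are a description only. They numbered 7 to 9 for 245 AMA-7 against 219 30P and 3 to 5 for 065 BP-8 against 219 30P. For 065 BP-8 against 245 AMA-7 they numbered 9 to 13. Restrictions chosen after the data were seen, whose construction leaves fewer members, gave 13 called members between the days in A15 among those silent in 1 strain and, among members with a mean of 1 FPKM in each strain, 5 for 245 AMA-7 against 219 30P and 2 for 065 BP-8 against 219 30P. The count of differences from A15 over all members not silent in 065 BP-8 rose with a pseudocount of 5 FPKM. It also rose with all 16 libraries in 1 fit. Some of these members passed the filter only through A15, and the cause was not tested. Equal replicate numbers did not go together (28 correlations of -0.272 to 0.167). A replicate block gave 3 called members between the days in 065 BP-8, 14 in 245 AMA-7, 13 in 219 30P and 26 in A15.

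Of the alternatives for single named genes, 596 kept the call and its direction, 52 lost the call and 0 reversed. Of the 52, 37 left out a library. With 2 libraries a group and unknown depth, small changes of genes at a few FPKM could not be resolved.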
